A study of Homo sapiens with 6 samples.

Results

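The comparison of an antisense with a sense oligonucleotide of LINE1 (L1) was examined in the primed human embryonic stem cell line H9. It holds 4 of the 6 libraries of the series, chosen by the oligo named in the labels: 2 libraries of cells given the antisense oligo (ASO-L1) and 2 of cells given the sense oligo (sO-L1). The other 2 libraries, from cells given a non-targeting antisense oligo (ASO-Ctr), entered the same fit and are used for reference levels. All cells were transfected with 25 nM of an oligo carrying a fluorescein tag, and tagged cells were sorted 48 hours later. All 3 groups also received 3 small molecules for the first 24 hours. These were trans-ISRIB at 0.7 uM, which relieves the translational block of the integrated stress response, emricasan at 5 uM, which inhibits caspases, and the ROCK inhibitor Y-27632 at 10 uM. For the medium, one field of the labels gives mTeSR and another RSeT. They do not say that replicates 1 and 2 were separate cultures, so p-values measure the spread between these libraries, which may be technical. The fit had 2 residual degrees of freedom against a median prior of 44.8. Each p-value therefore rests mostly on a spread shared across genes, and on the replicate block.

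L1 elements are the most active family of transposable elements in the human genome, and many copies lie inside the introns of other genes. An antisense oligo binds complementary RNA, while a sense oligo has the sequence of the target and is used as a control for the chemistry and the transfection. Primed embryonic stem cells are maintained by FGF and activin signalling. AP-1, YAP with TEAD, and ATF4 are transcription factors through which cells answer growth signals, matrix contact and a shortage of amino acids. The stated aim of the series concerns genes of the 8-cell embryo, and the comparison is described here across all genes.

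Poly(A) RNA was sequenced, and the deposited counts summed to between 18897936 and 67192937 per library, with 34665403 and 60999413 for the sense oligo and 46223290 and 57899009 for the antisense oligo. At these depths a count of 0 allows up to 0.0446 to 0.159 CPM (counts scaled to a common library size; the limit is 3 counts and covers counting error only). The 14 markers of primed embryonic stem cells summed to 12680 and 12610 CPM in sO-L1 and to 12080 and 12220 CPM in ASO-L1. In ASO-Ctr they summed to 12670 and 12440 CPM. Sums over markers and lists were scaled to total counts, without the TMM factors applied to single genes. On that scale both ASO-L1 libraries were the lowest. The factor was 1.022 in ASO-Ctr replicate 2 and 0.9869 in ASO-L1 replicate 1, so this order depends on the scaling. The 9 trophoblast markers summed to between 10.0 and 11.2 CPM, with HAND1 at 0 counts. Neural markers summed to between 213 and 235 CPM, nearly all TUBB3 (211 and 196 CPM in sO-L1, 219.9 and 206 CPM in ASO-L1), neural crest markers to between 26.5 and 33.2 CPM, those of mesoderm and endoderm to between 4.04 and 5.54 CPM, and amnion markers to between 1.73 and 3.42 CPM. Of these sums, those of neural crest and of mesoderm and endoderm were lower in both ASO-L1 libraries than in both sO-L1 libraries. The 6 fibroblast markers summed to 133 and 163 CPM in sO-L1 and to 162 and 172 CPM in ASO-L1, and COL1A1 was the 1 called member. No row of the table measures L1 itself, so the effect of the oligo on its target was not analysed here.

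Of 19156 genes tested, 1982 were higher and 2430 lower in ASO-L1 than in sO-L1 at an adjusted p under 0.05 (quasi-likelihood test of edgeR, blocked by replicate number, with Benjamini-Hochberg adjustment). These are 10.3% and 12.7% of the genes tested, and 23.0% together, and such genes are named here as called. Counts in the gene lists below can be read against these shares. The lists were chosen with earlier results of these data known, so such a comparison describes them and is not a test. Most differences were small: 398 called genes were at least 1.5-fold higher and 319 at least 1.5-fold lower, and 160 and 64 passed 2-fold. Both ASO-L1 libraries lay above both sO-L1 libraries for 1773 of the higher genes, and below both for 2135 of the lower genes. The block decided most of the calls. Without it 175 genes were higher and 177 lower (1.84% of the genes tested), and 351 of these 352 were also called with it. The labels do not say what the replicate numbers stand for. Single libraries mattered as well: the counts of higher and lower genes were 773 and 1029 if sO-L1 replicate 1 was left out, 908 and 1133 if ASO-L1 replicate 1 was, and 1072 and 1272 if sO-L1 replicate 2 was, where the library left alone was assumed to vary like the others. Of the 14 markers of primed cells, 3 were higher and 5 lower (57.1%, against 23.0% of all genes). SOX2 and ZIC2 were among those that rose and TERF1, L1TD1, DNMT3B and SFRP2 among those that fell, none by more than 0.33 ± 0.05 on the log2 scale, and these 8 calls were lost without the block. Abundant genes were called more often than all genes, with 718 higher and 845 lower of 4678 at 50 CPM or more. The part that level has in the share of the markers was not tested.

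**Figure D1:**
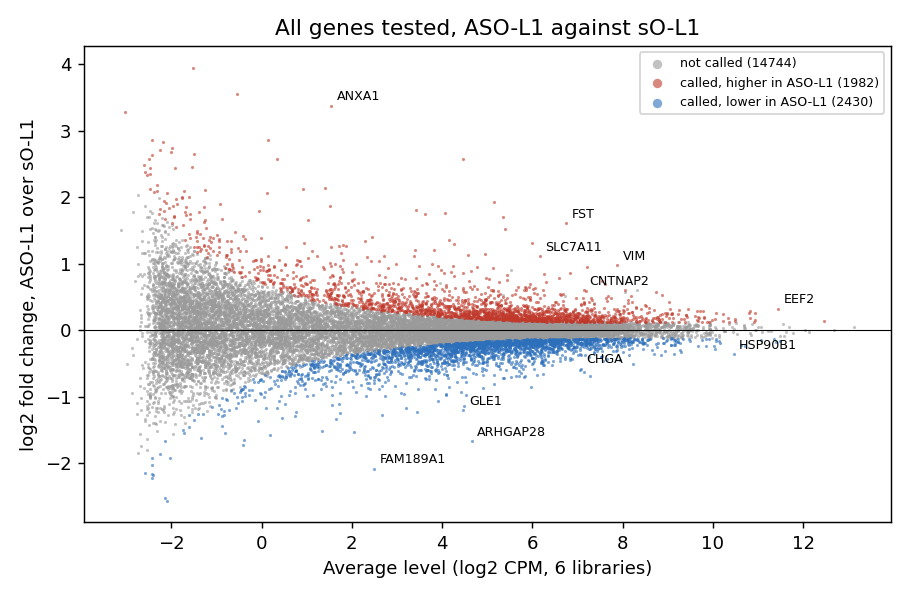
Each point is 1 of the 19156 genes tested, with its average level (log2 CPM over 6 libraries) on the x axis and its log2 fold change, ASO-L1 over sO-L1, on the y axis; red points were called higher (1982) and blue points lower (2430). Changes of more than 2-fold lie mainly among genes of low and middle level, and abundant genes such as EEF2 and HSP90B1 moved by less.

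Among the genes that rose most, several encode secreted proteins. FST, which encodes follistatin, a secreted binder of activins, stood at 76.4 and 50.4 CPM in sO-L1 (replicates 1 and 2) and at 228 and 158 CPM in ASO-L1. Both ASO-L1 libraries were above both sO-L1 libraries (1.61 ± 0.05, adjusted p = 5.6e-29). STC2, a secreted glycoprotein hormone of the stanniocalcin family, went from 40.5 and 43.7 CPM to 110.0 and 99.5 CPM (1.31 ± 0.06). TM4SF18 and TM4SF1, membrane proteins of the same 4-transmembrane family, rose together: TM4SF18 from 26.1 and 24.4 CPM to 76.3 and 69.3 CPM, and TM4SF1 from 3.49 and 2.79 CPM to 8.12 and 7.62 CPM. FST, STC2, TM4SF18 and TM4SF1 were also called without the replicate block, at much larger adjusted p (0.0118 for FST and 0.0012 for STC2).

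Peptide hormones and the granins of secretory granules moved in both directions. Of 25 tested members of a list of 36, 7 rose and 7 fell (56.0% called, against 23.0% of all genes). VGF, a granin-like peptide precursor, stood at 26.7 and 19.7 CPM in sO-L1 and 97.8 and 57.6 CPM in ASO-L1. The lower ASO-L1 library was above the higher sO-L1 library (1.71 ± 0.07, adjusted p = 6.4e-25). ADM2, a peptide of the adrenomedullin family, rose from 13.9 and 16.5 CPM to 28.3 and 25.6 CPM. TAC1, the precursor of substance P, was low in sO-L1, at 1.17 and 1.12 CPM, and rose to 6.997 and 3.82 CPM (2.14 ± 0.18). CHGA, which encodes chromogranin A, fell from 162 and 164 CPM to 106 and 111 CPM (-0.58 ± 0.05, adjusted p = 1.5e-13), and the groups did not overlap. SCG3, a granule protein that binds chromogranin A, fell from 85.8 and 86.3 CPM to 56.9 and 67.3 CPM, and SCG5, a chaperone of a prohormone convertase, from 16.2 and 15.1 CPM to 10.2 and 10.2 CPM. VGF, ADM2, TAC1, CHGA, SCG3 and SCG5 kept their calls without the block, at larger adjusted p (0.0120 for VGF and 0.0073 for CHGA). The summed level of the list was about the same in every library of the comparison, 531 and 531 CPM in sO-L1 and 538 and 518 CPM in ASO-L1.

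The TGF-beta superfamily, which includes the activins that maintain primed cells, had 6 higher and 9 lower members of 38 tested. This is 39.5% called, against 23.0% of all genes. Without sO-L1 replicate 2, 5 members were lower. Beside FST, INHBE, a subunit of activin E, rose from 5.17 and 6.00 CPM to 21.3 and 18.6 CPM, and SMAD7, an inhibitor that the pathway induces, from 39.8 and 42.1 CPM to 54.6 and 52.6 CPM. ID3, an inhibitor of helix-loop-helix factors that BMP signalling induces, fell from 116 and 109 CPM to 82.8 and 80.9 CPM (-0.46 ± 0.05, adjusted p = 5.9e-10), with no overlap. LTBP1, which anchors latent TGF-beta in the matrix, fell by 0.43 ± 0.06 on the log2 scale, and TGIF2, a repressor of SMAD-dependent transcription, by 0.37 ± 0.06. LTBP1 and TGIF2 lost their calls without the block (adjusted p = 0.0852 and 0.0621).

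**Figure D2:**
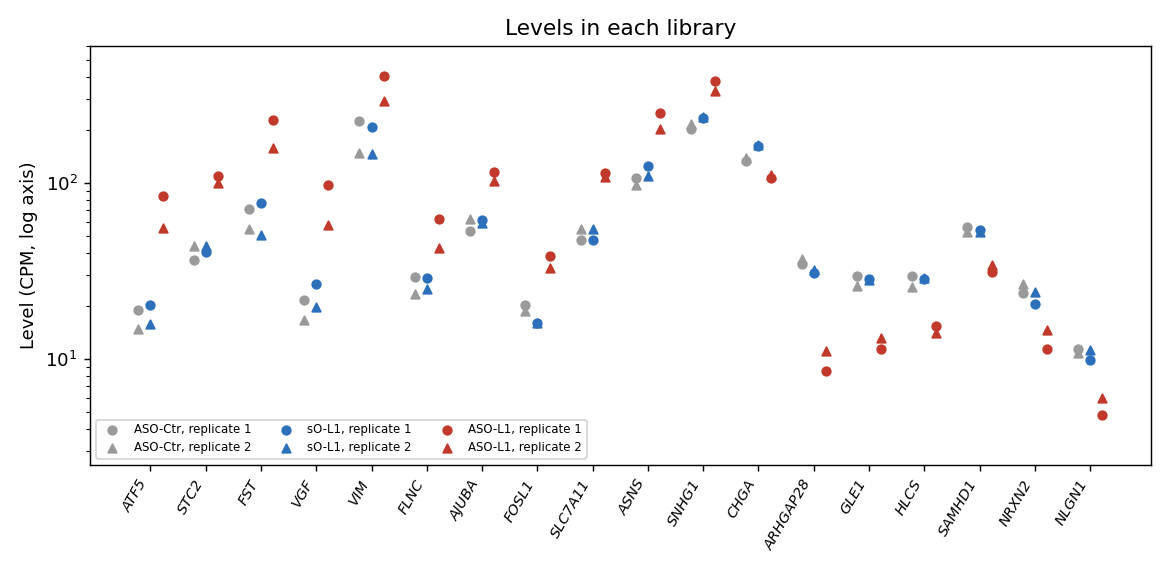
Level of 18 genes in each of the 6 libraries (CPM, log axis), with grey for ASO-Ctr, blue for sO-L1 and red for ASO-L1, circles for replicate 1 and triangles for replicate 2. In each of the 18 genes both ASO-L1 libraries lie outside the range of the other 4 libraries.

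YAP and TAZ are coactivators that enter the nucleus when the actin cytoskeleton is under tension and switch on genes through TEAD factors. Of 26 tested genes on a list of their targets and partners, 16 rose and the other 10 were not called, against 10.3% of all genes, with a median log2 fold change of 0.27 against -0.001 for all genes. The number that rose was 12 to 16 when each library was left out in turn. AJUBA, a LIM protein that binds the kinases restraining YAP, stood at 61.2 and 58.9 CPM in sO-L1 and 115 and 102 CPM in ASO-L1. Both ASO-L1 libraries were higher (0.85 ± 0.06, adjusted p = 1.2e-12). CYR61, a secreted matrix protein and a standard YAP target, rose from 28.01 and 29.7 CPM to 42.7 and 45.1 CPM, and CTGF, its relative, from 46.2 and 37.9 CPM to 57.8 and 54.6 CPM. AXL, a receptor tyrosine kinase, rose by 0.55 ± 0.06 on the log2 scale and NUAK2, a kinase that acts on myosin, by 0.65 ± 0.08. The list summed to 906 and 948 CPM in sO-L1 and to 1136 and 1119 CPM in ASO-L1. Without the block 5 of the 16 remained, AJUBA, CYR61, AXL and NUAK2 among them, and CTGF did not (adjusted p = 0.0724).

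Some genes of the cytoskeleton also rose. Of 37 actin and contractile genes, 8 rose and 29 were not called. This is 21.6% called, all higher, where 23.0% of all genes were called and 10.3% were higher. The median log2 fold change of the list was 0.04, and 2 of its genes were called without the block. FLNC, an actin crosslinker of muscle and stressed cells, stood at 28.7 and 24.9 CPM in sO-L1 and 62.2 and 42.5 CPM in ASO-L1 (0.94 ± 0.06, adjusted p = 3.7e-16). TAGLN2, an actin-binding protein, rose from 32.5 and 31.1 CPM to 52.6 and 43.4 CPM. VCL, which links integrins to actin, rose by 0.23 ± 0.05 on the log2 scale. Among 18 intermediate filament genes and lamins, 5 rose and 13 were not called (27.8% called), with a median log2 fold change of 0.046. VIM, which encodes vimentin, stood at 207 and 145 CPM in sO-L1 and 403 and 290.1 CPM in ASO-L1, a 1.97-fold rise in mean CPM, and the lower ASO-L1 library was above the higher sO-L1 library. LMNA, which encodes the A-type lamins of the nuclear envelope, rose from 58.3 and 52.6 CPM to 95.4 and 78.7 CPM, and KRT19, a keratin of simple epithelia, by 0.34 ± 0.05 on the log2 scale. VIM, VCL and KRT19 were not called without the block (adjusted p = 0.0670, 0.189 and 0.0859), and VIM differed between replicates 1 and 2 within every group. FLNC, TAGLN2 and LMNA kept their calls. Vimentin and contractile genes are also abundant in fibroblasts: of the 6 fibroblast markers COL1A1 rose, COL1A2 (87.7 and 108 CPM in sO-L1, 85.5 and 97.8 CPM in ASO-L1) and PDGFRA (2.03 and 1.82 CPM, 1.38 and 1.43 CPM) were not called, and 3 were too low to be tested. The part of such cells in these rises was not tested.

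Annexins bind membranes in the presence of calcium. ANXA1 had the largest fold change among genes with an average log2 CPM of at least 1, with 1.26 and 0.259 CPM in sO-L1 and 10.1 and 4.30 CPM in ASO-L1 (3.38 ± 0.20). Its low sO-L1 levels make the fold imprecise, and its call was lost without the block (adjusted p = 0.0548). ANXA3 rose from 19.3 and 13.99 CPM to 26.1 and 24.6 CPM, and ANXA2 by 0.32 ± 0.06 on the log2 scale, while ANXA6 and ANXA4 fell by 0.23 ± 0.05 and 0.37 ± 0.08, the call of ANXA4 being lost without sO-L1 replicate 1. In all, 3 members of the annexin and S100 list were higher and 2 lower of 19 tested (26.3% called, near the 23.0% of all genes). These calls were all lost without the block.

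**Figure D3:**
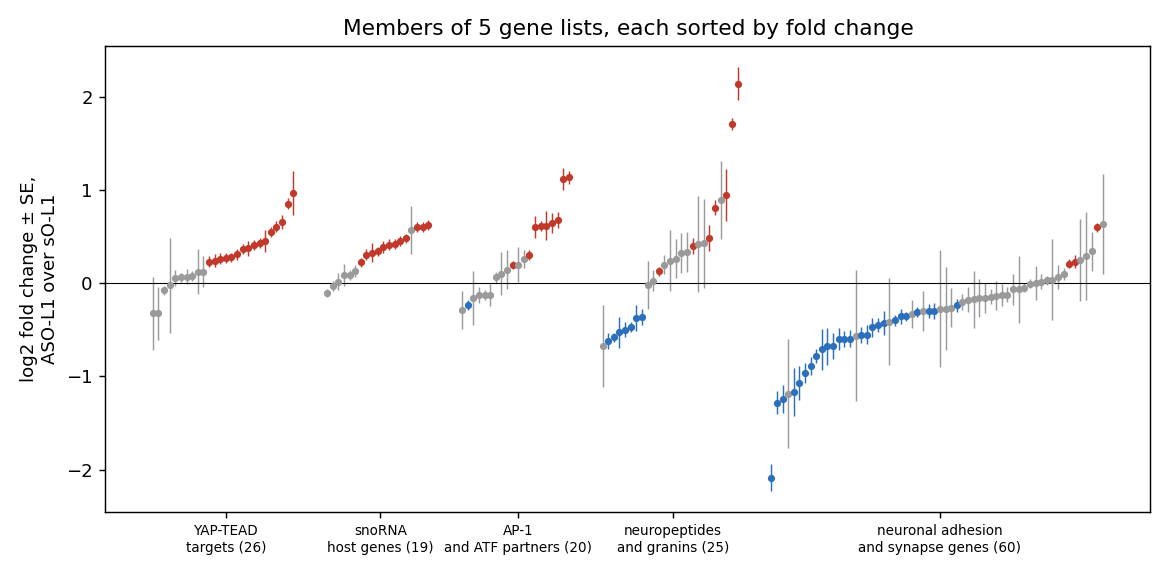
Log2 fold change ± SE, ASO-L1 over sO-L1, of each tested member of 5 gene lists, sorted within each list; red and blue points were called higher and lower, and grey points were not called. The YAP-TEAD targets and snoRNA host genes lie mostly above 0, the neuronal adhesion and synapse genes mostly below, and the neuropeptides on both sides.

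AP-1 is a dimer of FOS and JUN proteins, and small MAF proteins pair with related factors. Of 20 tested members, 9 rose and 1 fell. FOSL1 stood at 15.9 and 16.05 CPM in sO-L1 and 38.2 and 32.7 CPM in ASO-L1, and FOSL2 at 4.52 and 4.44 CPM and 10.4 and 9.10 CPM. Both genes were higher in both ASO-L1 libraries, by 1.13 ± 0.07 and 1.12 ± 0.11 on the log2 scale (adjusted p = 9.1e-18 and 8.3e-11). MAFG rose from 63.7 and 62.9 CPM to 103 and 90.5 CPM, and JDP2, a repressing dimer partner, from 6.22 and 6.37 CPM to 10.5 and 9.28 CPM. JUN rose by 0.67 ± 0.09 and JUND by 0.30 ± 0.05, and both lost the call without the block (adjusted p = 0.0574 and 0.0860). ATF5, a stress-induced factor of the related ATF family, rose from 20.3 and 15.8 CPM to 84.3 and 55.1 CPM. DDIT3, a stress-induced factor that pairs with C/EBP proteins, stood at 3.88 and 3.15 CPM in sO-L1 and 12.6 and 6.89 CPM in ASO-L1, higher in both ASO-L1 libraries (1.41 ± 0.12).

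Among Krüppel-like factors, 6 of 14 rose and 3 fell, and the number that rose was 2 to 7 when each library was left out, lowest without sO-L1 replicate 1. KLF7 rose from 29.8 and 33.9 CPM to 44.6 and 46.95 CPM and KLF4, a reprogramming factor, from 1.47 and 1.43 CPM to 6.01 and 4.66 CPM, and both kept their calls without the block. KLF13 and KLF15 fell by 0.22 ± 0.06 and 0.30 ± 0.09 on the log2 scale and did not. KLF15 lost its call without any 1 of the 4 libraries compared, and KLF13 without replicate 2 of either group. In the SOX family 5 of 15 rose, and 2 without sO-L1 replicate 2. SOX21, a neural progenitor factor, stood at 9.31 and 4.10 CPM in sO-L1 and 26.1 and 17 CPM in ASO-L1, and the RNA named as its antisense partner, SOX21-AS1, at 2.91 and 1.82 CPM and 6.84 and 4.53 CPM. How strand was treated in the counting is not given in the sources used here, so reads of the pair cannot be told apart. Without the block the call of SOX21 was lost (adjusted p = 0.0596) and that of SOX21-AS1 was kept. SOX2, a core pluripotency factor, rose by 0.20 ± 0.05 and SOX11 by 0.20 ± 0.05, small changes that were not called without the block (adjusted p = 0.268 and 0.213), and that of SOX2 was lost without sO-L1 replicate 2.

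The 250 bases before and 50 bases after the start site were taken from RefSeq (GRCh38.p14) for 15 of the 20 largest increases and 10 of the 20 largest decreases. On both strands 6 motifs were searched. TGANTCA, the AP-1 motif, occurred in ATF5, FST and DDIT3 (3 of 15 increases and 7.76% of all 27305 promoters). TGACGTCA, the cyclic AMP response element, occurred in VGF and in ZNF438, a gene that fell (1.98% of all promoters). TGATGNAAN, the motif of ATF4 with C/EBP factors, occurred in CHAC1 (3.67%). GGAATG, the TEAD motif, occurred in TM4SF18, TM4SF1 and TBX10, the last of which fell (14%). TGACNNNGC, the core of the antioxidant element, occurred in VGF, TRIB3, TM4SF1, STC2 and TBX10 (13.6%), and TCACGTGA, a motif of lysosomal genes, in no promoter of these genes (1.04%). The stretches below were chosen after the matches were seen, each with the motif in capitals on the strand of the gene and up to 50 bases on either side, ending at the start site at the latest. They show where the letters lie upstream of genes that rose, and a match is a description of sequence only.
VGF: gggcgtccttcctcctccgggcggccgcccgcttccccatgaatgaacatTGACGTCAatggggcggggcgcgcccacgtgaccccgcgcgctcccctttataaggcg
CHAC1: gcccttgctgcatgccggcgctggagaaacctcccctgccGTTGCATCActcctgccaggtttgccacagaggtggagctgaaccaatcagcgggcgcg
ATF5: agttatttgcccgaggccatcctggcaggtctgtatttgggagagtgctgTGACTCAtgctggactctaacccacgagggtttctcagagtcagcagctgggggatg
FST: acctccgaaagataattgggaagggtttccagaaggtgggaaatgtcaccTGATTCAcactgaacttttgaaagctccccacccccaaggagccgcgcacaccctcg
DDIT3: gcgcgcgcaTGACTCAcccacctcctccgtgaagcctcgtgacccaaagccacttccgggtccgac
They lie at chr7:101165591-101165698 on the minus strand, chr15:40953221-40953319 on the plus strand, chr19:49928668-49928774 on the plus strand, chr5:53480419-53480525 on the plus strand and chr12:57520699-57520764 on the minus strand. The CHAC1 motif is written in its reverse complement. Only 1292 of the 1982 higher and 1799 of the 2430 lower genes had a promoter entry, too few to compare motif shares over all called genes.

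The genes that fell most included regulators of small GTPases, of mRNA export and of biotin use. ARHGAP28, a GTPase-activating protein, stood at 30.7 and 32.2 CPM in sO-L1 and 8.55 and 11.1 CPM in ASO-L1. Both ASO-L1 libraries were far below both sO-L1 libraries (-1.67 ± 0.08, adjusted p = 7.2e-23), a 3.20-fold lower mean CPM. GLE1, an mRNA export factor at the nuclear pore, stood at 28.5 and 27.9 CPM and 11.4 and 13.1 CPM (-1.20 ± 0.08). HLCS, the enzyme that attaches biotin to carboxylases, fell from 28.5 and 28.9 CPM to 15.4 and 14.1 CPM, and CAMK2D, a calcium-dependent kinase, from 24.6 and 18.2 CPM to 11.6 and 9.88 CPM. None of these groups overlapped. TMEM179, a membrane protein, fell from 6.28 and 5.14 CPM to 1.73 and 2.12 CPM. COMMD1, a regulator of copper and NF-kappaB, fell from 15.9 and 12.4 CPM to 5.83 and 6.03 CPM and PILRB, a paired immunoglobulin-like receptor, from 27.7 and 29.4 CPM to 11.1 and 14.7 CPM. SAMHD1, a nucleotide hydrolase that restricts L1 and viruses, fell from 53.7 and 52.8 CPM to 31.01 and 34.1 CPM. FOXA2, an endoderm factor, and MYB, a progenitor factor, were low and fell further, to 1.95 and 1.61 CPM and 1.78 and 1.83 CPM from 3.82 and 3.84 CPM and 3.67 and 3.45 CPM. FOXA2 was the 1 member called lower of 6 tested markers of mesoderm and endoderm, and EOMES, a mesendoderm factor, the 1 called higher, from 0.264 and 0.389 CPM to 0.833 and 0.639 CPM (adjusted p = 0.0406), a call at low levels that was lost without the block (adjusted p = 0.362), with limma-voom, and without replicate 1 of either group or sO-L1 replicate 2. ARHGAP28, GLE1, HLCS, CAMK2D, TMEM179, COMMD1, PILRB, SAMHD1, FOXA2 and MYB were called without the block too.

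Genes on a list of neuronal adhesion and synapse genes were more often lower than higher. Of 60 tested, 26 were lower and 3 higher, against 12.7% and 10.3% of all genes, with a median log2 fold change of -0.28. The list was chosen with earlier results of these data known. It holds genes from the 20 largest decreases, FAM189A1, CTNNA2 and FAM155A among them, so its share is a description and not a test. The number that fell was 19 to 26 when each library was left out, and 10 without the block. NRXN2, a presynaptic neurexin, stood at 20.6 and 23.9 CPM in sO-L1 and 11.4 and 14.5 CPM in ASO-L1. NLGN1, a neuroligin that binds neurexins across the synapse, fell from 9.78 and 11.2 CPM to 4.76 and 5.96 CPM (-0.96 ± 0.10, adjusted p = 5.0e-10). Both genes were lower in both ASO-L1 libraries and kept their calls without the block. FAM189A1, a membrane protein, had the largest decrease of all called genes with an average log2 CPM of at least 1, from 7.13 and 7.52 CPM to 1.40 and 2.004 CPM (-2.08 ± 0.14, adjusted p = 2.2e-16). FAM155A, a subunit of the NALCN sodium leak channel, fell from 3.58 and 4.81 CPM to 1.69 and 1.88 CPM. CTNNA2, the neural alpha-catenin, fell by 1.28 ± 0.12 on the log2 scale. FAM189A1, FAM155A and CTNNA2 were called without the block. CNTNAP2, a relative of the neurexins and the longest gene named here, went against the group: it stood at 122 and 114 CPM in sO-L1 and 186 and 173 CPM in ASO-L1 (0.60 ± 0.05, adjusted p = 7.0e-14).

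Many of these genes are very long, and the calls were therefore counted by genomic span (GENCODE 29, GRCh38, matched by symbol for 80.7% of tested genes, 85.8% of higher and 93.5% of lower genes). The median span was 28.2 kb among higher genes, 48.8 kb among lower genes and 29.7 kb among all. Of 3676 genes under 10 kb, 8.3% were lower and 10.9% higher. The lower share was 13.6% of 6244 genes from 10 to 50 kb, 15.9% from 50 to 100 kb, 18.5% from 100 to 200 kb and 29.2% of 1001 genes from 200 to 500 kb. Of 273 genes of 500 kb or more, 37.0% were lower and 4.03% higher. The median log2 fold change of this last class was -0.26 within replicate 1 and -0.23 within replicate 2, and that of genes under 10 kb was 0.03 and 0.02. Average levels also differed with span, with a median log2 CPM of 2.13 in the shortest class, 4.61 in the next and 2.03 in the longest. Against ASO-Ctr, the median log2 fold change of the longest class was -0.35 in ASO-L1 and -0.10 in sO-L1. Both values use the same ASO-Ctr libraries. The part that level has in the differences between span classes was not tested.

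**Figure D4:**
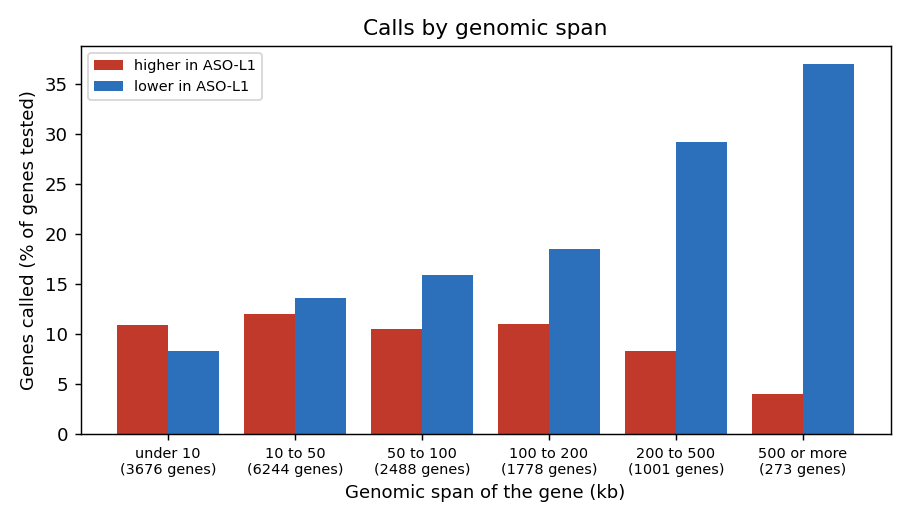
Share of tested genes called higher (red) and lower (blue) in ASO-L1 than in sO-L1, in % of the genes in each class of genomic span (kb, GENCODE 29), with the number of genes under each pair of bars. The lower share goes from 8.3% under 10 kb to 37.0% at 500 kb or more.

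Genes at common fragile sites, which are mostly very long, had 12 lower and 3 higher members of 36 tested. Among all genes 12.7% were lower and 10.3% higher. The list holds genes from the 20 largest decreases, IMMP2L and COMMD1 among them, so its count is a description and not a test. Its summed level was 1555 and 1694 CPM in sO-L1 and 1589 and 1717 CPM in ASO-L1, and so not lower in ASO-L1. IMMP2L, a mitochondrial inner membrane peptidase with a span of 899.5 kb, fell from 2.94 and 3.34 CPM to 1.03 and 1.16 CPM. EXOC4, an exocyst subunit spanning 814 kb, fell from 68.8 and 73.1 CPM to 49.9 and 56.4 CPM, and PTPRG, a receptor tyrosine phosphatase spanning 736 kb, from 176 and 205 CPM to 134 and 156 CPM. FTO, an RNA demethylase spanning 457 kb, fell by 0.48 ± 0.06 on the log2 scale. Without the block the calls of PTPRG and FTO were lost (adjusted p = 0.0810 and 0.0590), and EXOC4 was just inside the threshold (adjusted p = 0.0498). Single genes departed from this order of spans: GLE1, with 37.6 kb, fell and CNTNAP2, with 2305 kb, rose. Fragile-site and synaptic lists share members, CNTNAP2 among them.

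Genes of axon guidance and of ion channels were split. Of 69 guidance ligands and receptors, 16 rose and 16 fell, and these counts were 8 to 16 and 7 to 16 when each library was left out, lowest without sO-L1 replicate 2. EPHA4, an ephrin receptor, rose from 34.3 and 26.9 CPM to 55.4 and 45.7 CPM, and its call was lost without the block (adjusted p = 0.0538). EPHA2, another ephrin receptor, rose by 0.47 ± 0.05 and UNC5B, a netrin receptor, by 0.40 ± 0.05, and both kept it. SLIT2, a repellent ligand, fell from 7.72 and 8.61 CPM to 4.72 and 4.98 CPM. Of 99 channel subunits, 9 rose and 10 fell, shares close to those of all genes. KCND2, a potassium channel subunit, fell from 15.8 and 18.2 CPM to 7.59 and 10.7 CPM. Protocadherins had 11 higher and 2 lower members of 60 tested, but many genes of the clusters share exons, so counts of single members are uncertain, and 2 to 11 rose when each library was left out. PCDH18, outside the clusters, rose from 59.2 and 42.6 CPM to 87.7 and 75.5 CPM, a call lost without the block (adjusted p = 0.0695).

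Several genes of amino acid supply rose. Of 32 amino acid transporters 11 rose and 3 fell (43.8% called, against 23.0% of all genes). SLC7A11, the cystine importer, stood at 47.6 and 54.7 CPM in sO-L1 and 113 and 108 CPM in ASO-L1. Both ASO-L1 libraries were higher (1.11 ± 0.06, adjusted p = 3.1e-21). SLC7A1, an arginine importer, rose by 0.48 ± 0.05 on the log2 scale and SLC6A9, a glycine transporter, by 0.60 ± 0.08. Of 29 genes for the synthesis of serine, one-carbon units, proline and asparagine, 11 rose and 3 fell. ASNS, asparagine synthetase, went from 124 and 109 CPM to 251 and 203 CPM, and MTHFD2, a mitochondrial folate enzyme, from 171 and 158 CPM to 287 and 247 CPM. CHAC1, which degrades glutathione, rose from 14 and 12.03 CPM to 37.1 and 27.6 CPM. SLC7A11, SLC7A1, SLC6A9, ASNS, MTHFD2 and CHAC1 were called without the block.

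The cytosolic and mitochondrial aminoacyl-tRNA synthetases, which load amino acids onto tRNAs, gave different counts. Of 23 cytosolic enzymes 10 rose and 2 fell. CARS, for cysteine, rose from 66.6 and 63.8 CPM to 114 and 102 CPM, and WARS, AARS and GARS by 0.43 ± 0.05, 0.41 ± 0.05 and 0.35 ± 0.05 on the log2 scale, all called without the block as well. Of 17 mitochondrial enzymes 1 rose, MARS2, and 3 fell, IARS2 and NARS2 among them, none by more than 0.22 ± 0.05 on the log2 scale. The calls of MARS2 and NARS2 were lost when replicate 1 of either group or replicate 2 of sO-L1 was left out, that of MARS2 also without ASO-L1 replicate 2, and that of IARS2 without replicate 1 of either group. The difference between both sets was not tested. Mitochondrial ribosomal proteins had 12 lower and 2 higher members of 75 tested, a lower share near that of all genes, and 3 were lower without sO-L1 replicate 1. MRPS28 fell from 25.2 and 18.5 CPM to 16.1 and 15.2 CPM, with the largest fold change among those named. The calls of MRPS28 (adjusted p = 0.174), MARS2, IARS2 and NARS2 were lost without the block.

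Regulators of mTORC1 growth signalling and of nutrient uptake had 13 higher and 6 lower members of 43 tested, and 6 and 2 without sO-L1 replicate 1. DDIT4 and SESN2, stress-induced inhibitors of mTORC1, rose from 8.02 and 6.21 CPM to 19.3 and 13.8 CPM and from 33.6 and 34.8 CPM to 62.6 and 53.3 CPM. The alpha-arrestins TXNIP and ARRDC4, which restrain glucose uptake, rose from 14.7 and 14.04 CPM to 34.7 and 23.2 CPM and by 0.58 ± 0.08 on the log2 scale. ARRDC3, another alpha-arrestin, fell from 24.5 and 21.8 CPM to 14.5 and 13.5 CPM. All 5 kept their calls without the block. The pseudokinase TRIB3 rose from 11.6 and 10.9 CPM to 36.04 and 22.8 CPM (1.35 ± 0.22), with an adjusted p of 0.0235 that passed no longer without sO-L1 replicate 1.

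Host genes of small nucleolar RNAs, whose spliced RNAs carry little coding sequence and are broken down while they are translated, mostly rose. Of 19 tested, 12 rose and the other 7 were not called, with a median log2 fold change of 0.34, and 11 to 12 rose when each library was left out. SNHG1 stood at 234 and 235 CPM in sO-L1 and 379.7 and 334 CPM in ASO-L1, and SNHG7 at 45.4 and 39.98 CPM and 69.7 and 59.98 CPM. GAS5 rose from 266 and 244 CPM to 376 and 323 CPM. These 3 genes were lower in both sO-L1 libraries and were the ones called without the block, where SNHG8, DANCR and SNHG5 were not (adjusted p = 0.105, 0.0527 and 0.110). The list summed to 2421 and 2406 CPM in sO-L1 and 2963 and 2753 CPM in ASO-L1.

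Long non-coding RNAs as a class had few lower calls, and their higher share was near that of protein-coding genes. By GENCODE class, 12% of 534 long non-coding genes were higher and 3.75% lower, against 11.3% and 15.9% of 14077 protein-coding genes, and 3696 tested genes had no match by symbol. The non-coding genes were less abundant, with a median log2 CPM of -0.31 against 4.52, and the difference was not tested. NEAT1, the RNA scaffold of paraspeckles, stood at 7.25 and 10.2 CPM in sO-L1 and 29.5 and 29.8 CPM in ASO-L1, and NBR2 at 2.06 and 2.09 CPM and 5.61 and 4.58 CPM. LINC00152 rose from 1.09 and 0.665 CPM to 5.04 and 2.75 CPM and LINC00324 from 0.587 and 0.308 CPM to 3.14 and 2.04 CPM. All 4 were called without the block. Of 239 antisense RNAs tested together with the gene they are named after, both partners were called in 19 pairs, and 16 of these moved the same way. Reads of such pairs cannot be told apart here. Zinc finger genes named ZNF belong to a family whose KRAB members silence transposable elements. Of 482 tested, 92 rose and 31 fell, against 10.3% and 12.7% of all genes, with a median of 0.07. Together 25.5% were called, near the 23.0% of all genes, but rises outnumbered falls. Without sO-L1 replicate 1 these counts were 27 and 12, and without the block 2 and 1. ZNF469 rose from 1.67 and 2.59 CPM to 4.61 and 5.17 CPM, and ZNF664 fell from 204 and 204 CPM to 139.8 and 157 CPM.

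Signalling genes of FGF and WNT gave mixed counts. Of 38 FGF and ERK genes 10 rose and 4 fell. FGF2, a ligand that sustains primed cells, rose from 156 and 151 CPM to 198 and 187 CPM and DUSP4 and DUSP5, phosphatases that ERK induces, by 0.42 ± 0.06 and 0.41 ± 0.06 on the log2 scale. EGR1, an immediate target of ERK, fell from 39.4 and 49.7 CPM to 25.2 and 34.2 CPM, with the groups separate. Of these 4, FGF2 was called without the block (adjusted p = 0.0493), and DUSP4, DUSP5 and EGR1 were not. Of 45 WNT genes 5 rose and 9 fell, and 2 to 10 fell when each library was left out. FZD5, a WNT receptor, rose from 83.8 and 78.1 CPM to 124 and 113 CPM. SFRP1, a secreted WNT antagonist, was abundant and fell from 1199 and 1178 CPM to 1024 and 1063 CPM (-0.19 ± 0.05), a call lost without ASO-L1 replicate 1 and without the block (adjusted p = 0.223). Collagens, laminins and integrins had 10 higher and 14 lower members of 71, and COL1A1 rose from 45.6 and 51.1 CPM to 77.1 and 72.5 CPM. CCND2, a G1 cyclin, rose by 0.29 ± 0.05 while CCND1 and CCNE1 fell by 0.34 ± 0.06 and 0.28 ± 0.05, none of them called without the block. In all 1 of 28 G1 cyclins and kinase inhibitors rose and 6 fell (25.0% called, near the 23.0% of all genes).

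Abundant genes were called more often than all genes tested, but their changes were small. Of 4678 genes with at least 50 CPM, 718 were higher and 845 lower, against 1982 and 2430 of all 19156. Of these abundant genes 3 reached 2-fold: SLC7A11, FST and STC2. EEF2, the elongation factor that moves the ribosome, rose from 2484 and 2617 CPM to 3263 and 3107 CPM. GAPDH and ENO1, glycolytic enzymes, rose by 0.26 ± 0.05 and 0.16 ± 0.05 on the log2 scale, and the mitochondrial transcript MT-ND1 by 0.30 ± 0.05. HSP90B1, a chaperone of the endoplasmic reticulum, fell from 1593 and 1585 CPM to 1188 and 1285 CPM, and HSP90AA1, its cytosolic relative, from 3094 and 2779 CPM to 2605 and 2594 CPM. L1TD1, a stem cell gene that descends from the first open reading frame of L1, stood at 1853 and 1838 CPM in sO-L1 and 1513 and 1628 CPM in ASO-L1 (-0.23 ± 0.05, adjusted p = 1.3e-04). DNMT3B, a de novo DNA methyltransferase, fell from 1588 and 1701 CPM to 1356 and 1473 CPM and TERF1, a telomere-binding protein, by 0.33 ± 0.05 on the log2 scale. Of EEF2, GAPDH, ENO1, MT-ND1, HSP90B1, HSP90AA1, L1TD1, DNMT3B and TERF1, only HSP90B1 was called without the block (adjusted p = 0.0432). ENO1, HSP90AA1 and L1TD1 also lost their calls when sO-L1 replicate 1 was left out. So did ENO1 and HSP90AA1 when ASO-L1 replicate 1 was, and ENO1 when sO-L1 replicate 2 was.

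Several other lists had members on both sides. Of 38 NRF2 and glutathione genes 9 rose and 6 fell. NQO1, a quinone reductase, rose from 75.01 and 58.8 CPM to 110.0 and 84.2 CPM and was not called without the block (adjusted p = 0.131), and ME1, malic enzyme, fell from 16.4 and 14.01 CPM to 9.69 and 8.59 CPM and was. Heat shock and cytosolic chaperones had 7 higher and 9 lower members of 36, and BAG2, a chaperone cofactor, rose from 20.1 and 20.01 CPM to 31.1 and 29.04 CPM. Nuclear genes of oxidative phosphorylation had 3 higher and 9 lower of 82, lysosome and autophagy genes 5 and 7 of 56, and SR proteins and hnRNPs 5 and 7 of 61. These are 14.6%, 21.4% and 19.7% called, below the 23.0% of all genes. A list of factors that silence or restrict L1 had 5 higher and 8 lower members of 45 (28.9% called, against 23.0% of all genes). Its higher members include TET3, which removes DNA methylation and so is not a silencer. TET3, a DNA demethylase, rose from 48.5 and 54.4 CPM to 65.4 and 65.6 CPM and UHRF1, which guides maintenance methylation, fell by 0.20 ± 0.05 on the log2 scale, a call lost without sO-L1 replicate 2. Of this list SAMHD1 was the 1 gene called without the block. Imprinted genes had 9 higher and 3 lower of 28, and without sO-L1 replicate 1 the higher count was 1. CDKN1C, an imprinted inhibitor of G1 kinases, fell from 6.99 and 6.58 CPM to 4.56 and 3.78 CPM and kept its call without the block (adjusted p = 0.0460). Higher and lower members numbered 3 and 2 of 21 in the BCL2 family, 3 and 1 of 19 cadherins, 3 and 4 of 25 paraspeckle and speckle genes, and 2 and 1 of 13 mitochondrially encoded genes. In this order 23.8%, 21.1%, 28.0% and 23.1% were called, against 23.0% of all genes.

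**Figure D5:**
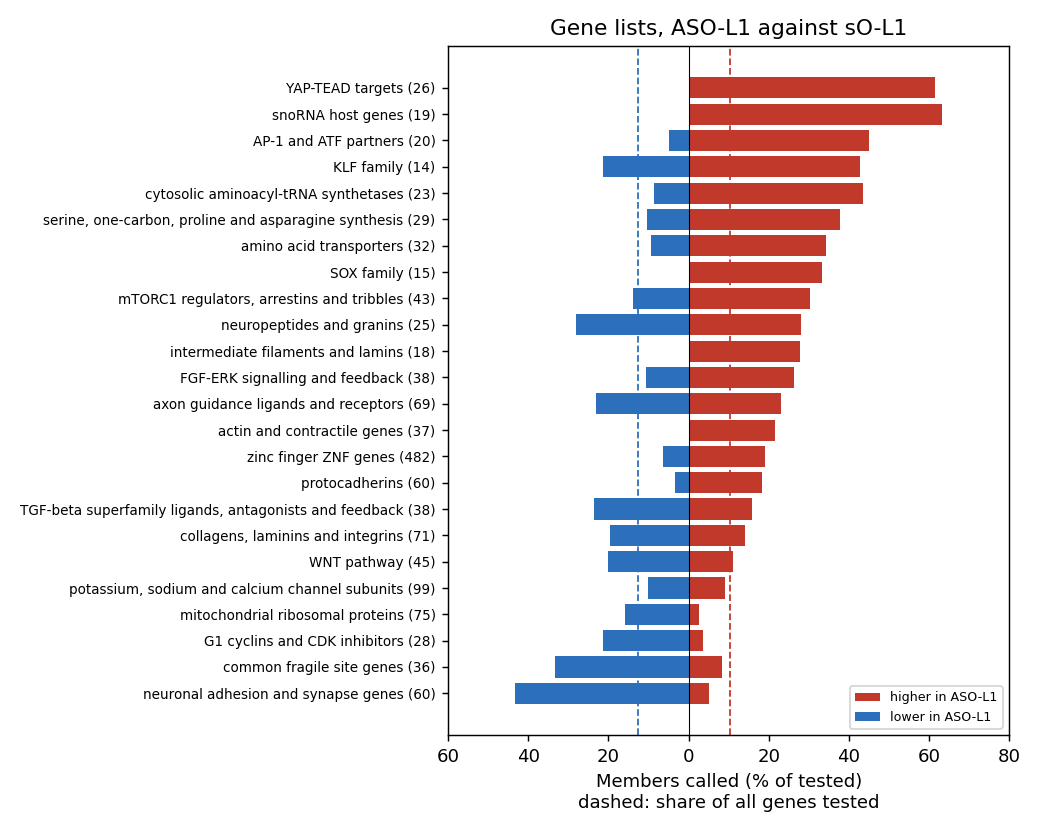
Share of the tested members of 24 gene lists called higher (red, right) and lower (blue, left) in ASO-L1 than in sO-L1, with the number tested in brackets and dashed lines at the shares of all genes tested, 10.3% and 12.7%. The YAP-TEAD targets (16 of 26) and snoRNA host genes (12 of 19) have the longest red bars, and the neuronal adhesion and synapse genes (26 of 60) the longest blue bar.

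The levels in ASO-Ctr place both L1 oligos. In the same fit 4119 genes (21.5%) were called in ASO-L1 against ASO-Ctr and 330 (1.72%) in sO-L1 against ASO-Ctr, and both comparisons share the ASO-Ctr libraries. FST stood at 71.1 and 54.8 CPM in ASO-Ctr, and its log2 fold change was 1.59 ± 0.05 in ASO-L1 and -0.02 ± 0.05 in sO-L1 (adjusted p = 0.931 in sO-L1). ARHGAP28 stood at 34.8 and 36.7 CPM, with -1.85 ± 0.08 in ASO-L1 and -0.18 ± 0.07 in sO-L1. For these genes the ASO-L1 libraries were the ones apart. Other genes had sO-L1 apart. L1TD1 stood at 1561 and 1702 CPM in ASO-Ctr, and was called in sO-L1 (0.18 ± 0.05, adjusted p = 0.0308) and not in ASO-L1 (-0.06 ± 0.05, adjusted p = 0.447). HSP90AA1 at 2648 and 2501 CPM and ARRDC3 at 17.9 and 14.4 CPM in ASO-Ctr gave the same calls, with 0.19 ± 0.05 and 0.54 ± 0.08 in sO-L1. CHGA, at 133 and 138 CPM in ASO-Ctr, was called in opposite directions, with 0.27 ± 0.05 in sO-L1 and -0.31 ± 0.05 in ASO-L1, so its ASO-Ctr level lay between those of both L1 oligos.

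The authors' deposited table of the same comparison lists 16753 genes, 1882 higher and 2000 lower at its adjusted p under 0.05. Of these calls 3781 were also called here with the same sign, 97.4% of the calls in the authors' deposited table and 85.7% of the edgeR calls. Both rest on the same libraries, so neither is independent of the other.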

How the data were processed

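Poly(A) RNA of 6 libraries was compared: 2 each of ASO-Ctr, sO-L1 and ASO-L1, grouped by the labels. Per the submitters' processing notes the authors used Trim Galore 0.4.0, TopHat2 2.0.13 with hg19, and featureCounts of Subread 1.5.0. The count table deposited by the authors holds raw counts for each gene symbol after removal of duplicate reads, per its name, and how strand was treated is not given in the sources used here. A second deposited table has log2 values that the authors normalized and batch-corrected, and it served here to check the order of the columns. The third, the comparison table deposited by the authors, has log2 fold changes, p-values and scores (moderated t and log odds) for ASO-L1 against sO-L1, with an unstated adjustment.

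The table had 53807 entries. Its 92 spike-in sequences, with 9 counts in all, were left out. Of 53715 genes, 35175 had a count, and edgeR's filterByExpr (at least 10 counts, and 15 in total) left 19156 for testing. TMM scaling gave factors from 0.983 to 1.02. The robust quasi-likelihood test of edgeR 4.0.16 (R 4.3.3) was fitted to all 6 libraries with terms for group and replicate number, which left 2 residual degrees of freedom and a median prior of 44.8. A gene was called at a Benjamini-Hochberg adjusted p under 0.05. Each SE was obtained by dividing the size of the log2 fold change by the square root of F. CPM of single genes were computed on TMM-scaled library sizes, with n = 2 libraries a group. Sums over markers and lists were computed on total counts without the TMM factors. The pipeline was tested on simulated data, and no pair of libraries was identical.

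The block was used because the comparison was defined with it and because a batch-corrected table is among the outputs. Across genes, the differences between replicates 1 and 2 correlated between groups at 0.224, 0.153 and 0.246. Nothing in the labels ties a replicate number to a batch or culture, so the pairing is not established. The members, the 48 gene lists and the motifs were chosen with earlier results of these data known. Lists made by a name pattern include pseudogenes of that name. Genes were named by this rule: the 20 largest increases and decreases among called genes whose log2 CPM averaged 1 or more and whose sign was the same in both replicates, the 12 largest changes in CPM each way, and in each list the 6 genes of lowest p. The alternatives were the size factors of DESeq2 or upper-quartile factors for scaling, no low-count filter or one at 0.5 CPM in 2 libraries, DESeq2 1.42.0 or limma-voom (limma 3.58.1) for the test, a fit with no replicate block, a fit of the 4 libraries alone, and each library left out. Some genes that this rule names are not reported here.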

Additional observations from a re-analysis of the deposited data

How the results depend on the processing

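The counts of higher and lower genes, 1982 and 2430, stayed within 1.5 times under both other scalings, with no low-count filter or one at 0.5 CPM, with limma-voom and in a fit of the 4 libraries alone, with 1796 to 2150 higher and 2048 to 2573 lower. With DESeq2 they were 1052 and 1312. In the fit with no replicate block they were 175 and 177. The labels do not say that a replicate number marks a shared batch or culture, so the pairing behind the block is not established by them. When each library was left out in turn, the higher genes numbered 773 to 2087 and the lower genes 1029 to 2615, with the lowest counts without sO-L1 replicate 1. Such a fit leaves 1 library in a group, which is assumed to vary like the others. The cause of these differences was not tested. Of 135 named genes called, 84 were also called without the block, and in 134 the libraries of both groups did not overlap. The genes were named for large changes, a shared sign or low p, which favours both numbers. Among all called genes the groups did not overlap in 1773 of 1982 higher and 2135 of 2430 lower genes. Only 351 of all 4412 called genes were also called without the block. None of the named genes reversed under the alternatives run. DESeq2 lost the calls of KLF15, MARS2 and NARS2, and limma-voom that of EOMES. Leaving out 1 library cost 11 calls for sO-L1 replicate 1 (ANXA4, ENO1, EOMES, HSP90AA1, IARS2, KLF15, L1TD1, MARS2, NARS2, TRIB3 and ZNF438), 9 with ASO-L1 replicate 1 left out, 8 with sO-L1 replicate 2 left out and 3 with ASO-L1 replicate 2 left out. Depth limits low genes most: the median SE of the log2 fold change was 0.272 over 3046 genes from 0.5 to 2 CPM and 0.052 over 2349 genes from 50 to 100 CPM.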
